A study of Homo sapiens with 4 samples.

Results

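The cytosolic ribosomal protein genes are described here in HCT116 cells, an established line from a human colon cancer, exposed or not exposed to hydrogen peroxide (H2O2), a membrane-permeable oxidant. They were chosen by symbol: RPL or RPS followed by digits and nothing, A or X, together with RPLP0, RPLP1, RPLP2 and RPSA. The rule found 76 genes among the 16376 of the table, 46 of the large subunit and 30 of the small subunit. The RNA-seq study has 2 H2O2-treated and 2 Control (untreated) samples, all of the same cell line with no genetic change named, and neither dose nor exposure time is in the labels. The labels do not say whether samples of a group were separate cultures, and a p-value here measures only the spread between these samples, which may be technical. FAU, whose protein is made as a fusion, falls outside the rule.

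The ribosome is built from ribosomal RNA and a set of small basic proteins, most of them needed in equal numbers. The large subunit joins amino acids and the small subunit reads the mRNA. Their mRNAs usually begin with a run of pyrimidines, the 5′ terminal oligopyrimidine (TOP) tract, through which growth signalling sets how strongly they are translated. Many of these genes carry small nucleolar RNAs (snoRNAs), guides of ribosomal RNA modification, in their introns, and the human genome holds very many intronless copies of ribosomal protein mRNAs.

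The authors' deposited table gives the mean normalized counts of groups called A and B. Its name lists Control before H2O2, A was read as Control on that basis, and every direction given here depends on this reading. Whole counts of the 4 libraries were recovered from these means, and the libraries are called the deeper and the shallower of each group since replicate numbers cannot be assigned to them. The H2O2 libraries held 7365032 and 6858809 reads over listed genes and the Control libraries 7309731 and 6892854. All 8 markers of colon epithelium were listed, with summed normalized counts of 9432 and 9023 in the H2O2 libraries and 7596 and 9026 in the Control libraries. Of the markers of other cell types, 1 of 5 for leukocytes (CD14), 2 of 5 for fibroblasts (COL1A1 and COL3A1) and 1 of 4 for endothelium (KDR) were listed. The fibroblast pair summed to 797 and 736 in the H2O2 libraries and 992 and 915 in the Control libraries. CD14 had 18.3 and 10.4 in the H2O2 libraries and 4.79 and 3.08 in the Control libraries, and KDR had 13.5 and 8.32 in the H2O2 libraries and 6.71 and 6.16 in the Control libraries. The part of these markers in the results was not tested.

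The sequences below are shown because most members begin with a pyrimidine run, those that fell and those that were not called alike. Each gives 30 bases of the gene's own strand, 15 before and 15 from the annotated start on, from RefSeq's table on GRCh38.p14, with the pyrimidine run in capitals. The first 5 genes were lower with H2O2 in the authors' test, and the other 4 were not called. RPL37, which was also lower, is named only.
RPL3, chr22:39319609-39319638, minus strand: gtaaggccgaccggCCTCTaccggcgggat
RPSA, chr3:39406705-39406734, plus strand: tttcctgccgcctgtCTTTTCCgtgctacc
RPS3A, chr4:151099613-151099642, plus strand: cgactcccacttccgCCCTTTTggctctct
RPL21, chr13:27251543-27251572, plus strand: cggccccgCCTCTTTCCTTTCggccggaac
RPS13, chr11:17077653-17077682, minus strand: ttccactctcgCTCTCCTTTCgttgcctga
RPL13A, chr19:49487593-49487622, plus strand: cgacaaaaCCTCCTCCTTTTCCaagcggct
RPLP1, chr15:69452803-69452832, plus strand: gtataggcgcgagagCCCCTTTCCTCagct
RPL22, chr1:6199581-6199610, minus strand: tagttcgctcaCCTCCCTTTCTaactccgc
RPS19, chr19:41860240-41860269, plus strand: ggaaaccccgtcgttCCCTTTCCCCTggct
A TOP start was counted where a C followed by at least 4 pyrimidines began between 10 bases before and 10 bases after the annotated start. It was found in 54 of the 62 members that have an entry (87.1%), against 33.0% of 15137 promoters of listed genes and 32.5% of all 35116 promoters. The ETS motif CCGGAAG, searched on both strands of 250 bases before to 50 after the start, was present in 33.9% of these members and in 15.7% of promoters of listed genes. The YY1 core AAGATGG was present in 12.9% of members and 6.80% of promoters of listed genes, TATAAA in 8.06% and 6.47%, and CACGTG in 4.84% and 8.998%. The 54 members with a TOP start had a median log2 fold change of -0.18, and 5 of them were lower in the authors' test. Of all 76 members 7 were lower there (9.21%), against 4.62% of all genes. The 8 without a TOP start had a median of 0.02, and 0 of them were called. The difference between these sets was not tested, and which genes fall in each depends on the annotated start.

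Of the 76 genes, 7 were lower with H2O2 in the authors' deposited table at an adjusted p under 0.05 (4 of the large and 3 of the small subunit), which is 9.21% of members, against 4.62% of all genes. None was higher in the authors' deposited table, against 2.58% of all genes, and 0 were higher there at an unadjusted p under 0.05, against 7.72% of all genes. At an unadjusted p under 0.05, 17 members were lower in the authors' deposited table (22.4%), against 11.9% of all genes. Among the 12338 genes at or above the lowest member's mean, 5.37% were called lower and 1.86% higher. limma with Benjamini-Hochberg adjustment, run on the recovered libraries, called 4 members lower (RPL3, RPSA, RPS3A and RPL37), against 2.58% of all genes, and 0 members higher, against 1.52%. Without the shallower Control library limma, with the same adjustment, called 15 members lower (19.7%), against 11.6% of all genes, and 6 higher (7.89%), against 10.6% of all genes. Without the deeper Control library it called 9 members lower (11.8%), against 4.81% of all genes, and leaving out the deeper and then the shallower H2O2 library gave 3 each (3.95%), against 1.10% and 1.84% of all genes. In those 3 fits 0 members were called higher, against 3.71%, 0.635% and 1.29% of all genes. The counts of calls given below for groups of genes are those of the authors' deposited table unless limma is named.

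Most of the members that were not called lay slightly lower with H2O2. Both H2O2 libraries were below both Control libraries for 43 members (56.6%), against 25.6% of all genes, and above both for 9 members (11.8%), against 26.3% of all genes. The groups overlapped for the remaining 24 members. The log2 fold change was below 0 for 51 members (67.1%), against 50% of all genes. Its median was -0.14 over the members and 0.00 over all genes. By limma's estimates the members' median was between -0.16 and -0.13 under library totals, a pseudocount of 10 and cyclic loess, and -0.24 after correcting each library for a trend with transcript length. A lower share of RNA per cell and fewer cells expressing a gene cannot be told apart in bulk samples.

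**Figure D1:**
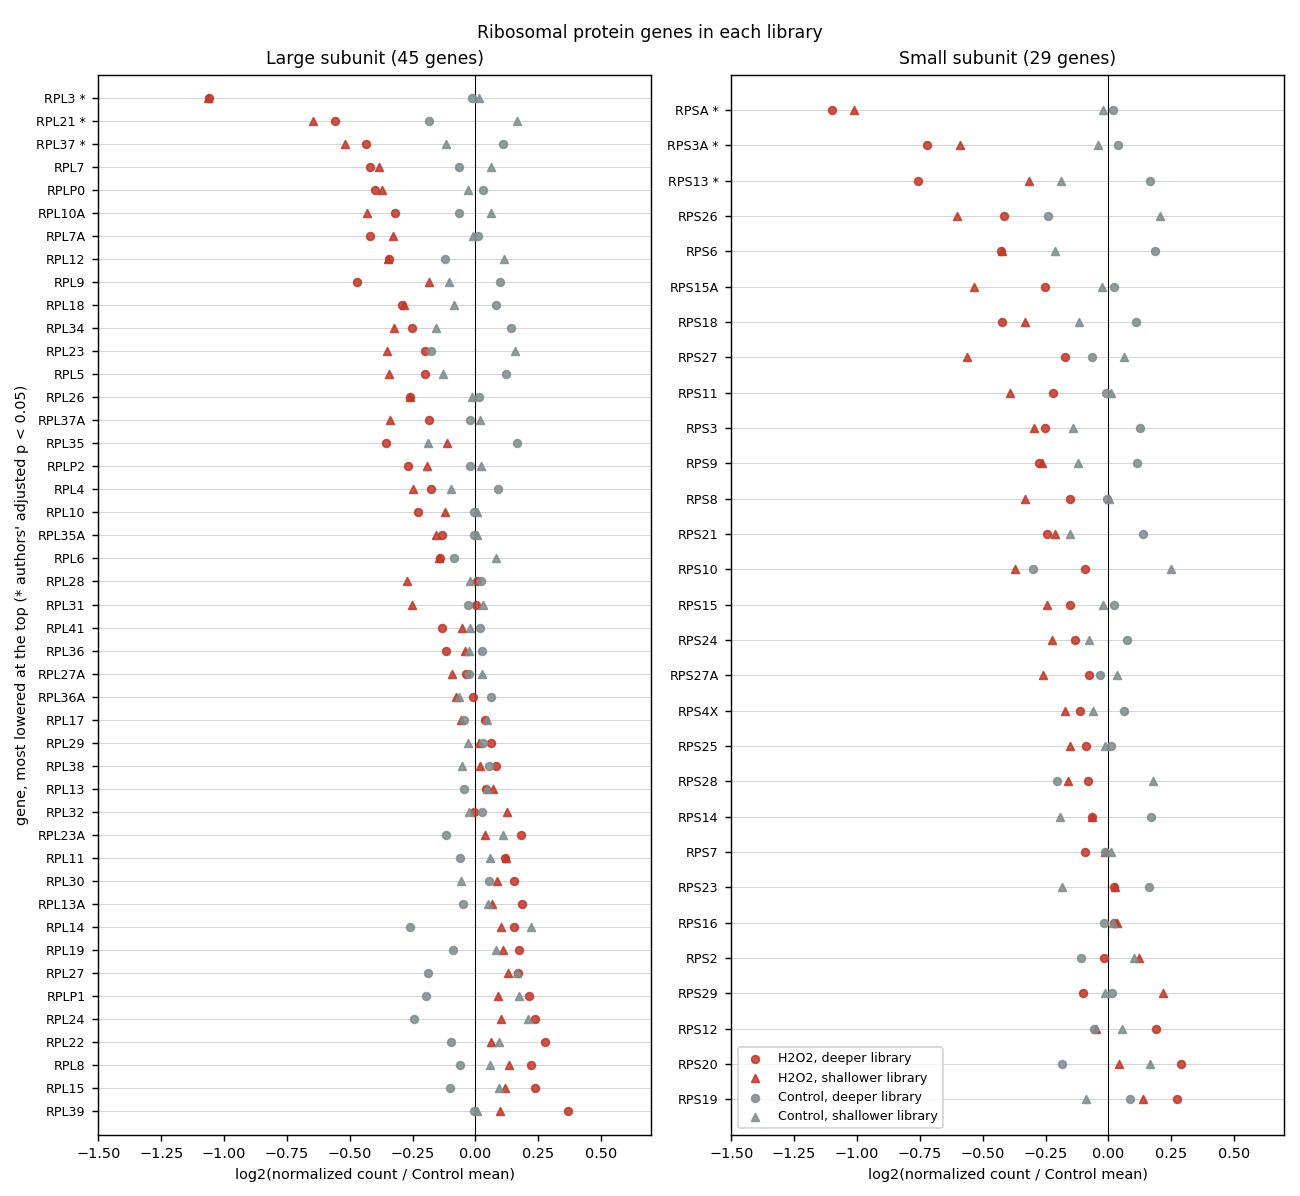
Each row is a ribosomal protein gene, 45 of the large subunit on the left and 29 of the small subunit on the right, and the x axis is the log2 ratio of its normalized count in a library to the Control mean. Circles are the deeper and triangles the shallower library, H2O2 in red and Control in grey, and stars mark the 6 of them with an adjusted p under 0.05 in the authors' table. The red points lie left of both grey points for 42 of these genes and right of both for 9, against 25.6% and 26.3% of all genes.

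RPL3, RPL21 and RPL37 were among the 4 large subunit genes that fell. RPL3, whose protein reaches toward the peptidyl transferase centre, had normalized counts of 204 and 203 in the H2O2 libraries, against 421 and 428 in the Control libraries. Its groups were far apart and its replicates nearly equal. The fold in the authors' deposited table was 0.479 (log2 -1.06, adjusted p 2.13e-09), the largest fall among the members. limma gave a log2 fold change of -1.06 ± 0.13 (SE) with a Benjamini-Hochberg adjusted p of 0.000294. RPL37, a zinc-binding protein of the large subunit and the most abundant per coding length of the genes that fell, had 856 and 808 in the H2O2 libraries, against 1247 and 1068 in the Control libraries. In the authors' deposited table its fold was 0.719 (adjusted p 0.00685). Its limma log2 fold change was -0.47 ± 0.11 (SE), with a Benjamini-Hochberg adjusted p of 0.0311 that became 0.192 and 0.287 when the deeper or the shallower H2O2 library was left out.

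RPL21, a large subunit protein, had 105 and 98.8 in the H2O2 libraries, against 136 and 173 in the Control libraries. The Control libraries differed more from each other than the H2O2 libraries did. The authors' deposited table gives RPL21 a fold of 0.659 (adjusted p 0.0357), and limma gave a Benjamini-Hochberg adjusted p of 0.0771.

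The 3 small subunit genes that fell were RPSA, RPS3A and RPS13. RPSA, which sits on the mRNA exit side and is also known as the laminin receptor, had normalized counts of 77.2 and 82.2 in the H2O2 libraries, against 168 and 163 in the Control libraries. As for RPL3, replicates were close and groups far apart, with a fold of 0.482 in the authors' deposited table (log2 -1.05, adjusted p 1.41e-05). limma gave -1.05 ± 0.17 (SE), with a Benjamini-Hochberg adjusted p of 0.00354. RPS3A, its neighbour on the exit side, had 177 and 193 in the H2O2 libraries, against 299 and 283 in the Control libraries. Both H2O2 libraries lay well below both Control libraries. The fold in the authors' deposited table was 0.636 (adjusted p 0.00193), and limma's Benjamini-Hochberg adjusted p was 0.0150, or 0.165 without the deeper H2O2 library. RPS13, a protein of the small subunit body, had 115 and 156 in the H2O2 libraries, against 218 and 170 in the Control libraries. Here the shallower libraries of the groups were close to each other. The fold of RPS13 in the authors' deposited table was 0.698 (adjusted p 0.0428), and limma's Benjamini-Hochberg adjusted p was 0.126. RPL3 and RPSA were the 2 members that limma called lower whichever of the 4 libraries was left out.

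**Figure D2:**
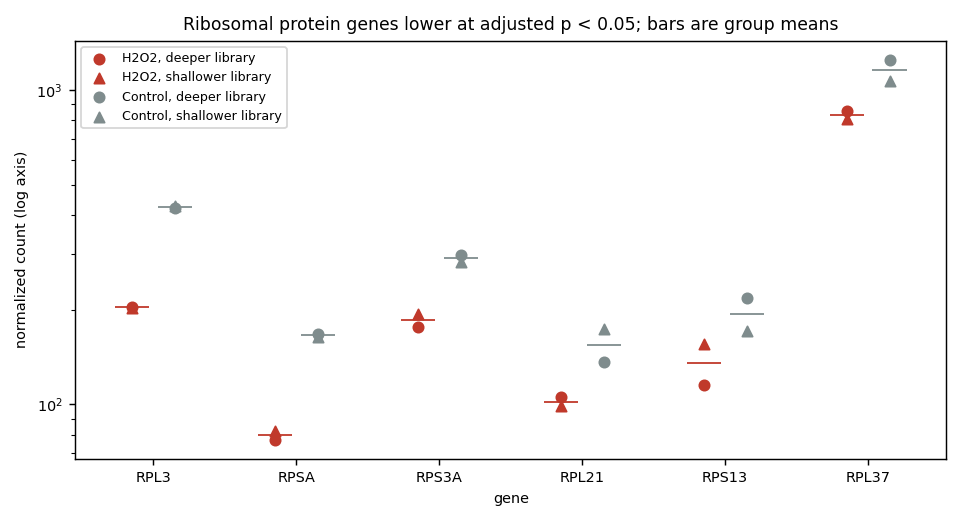
Normalized counts, on a log axis, of 6 ribosomal protein genes that were lower with H2O2 in the authors' table, ordered from the largest fall on the left. Circles are the deeper and triangles the shallower library of each group, H2O2 in red left of Control in grey, and bars are group means. The H2O2 and Control points are far apart for RPL3 (204 and 203 against 421 and 428) and closest for RPS13 (115 and 156 against 218 and 170).

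The nearest genes outside the threshold in the authors' deposited table were RPS18 (log2 fold change -0.38, adjusted p 0.0862) and RPLP0 (log2 fold change -0.39, adjusted p 0.0879). RPS18 had normalized counts of 356 and 380 in the H2O2 libraries, against 515 and 440 in the Control libraries. RPLP0 had 328 and 334 in the H2O2 libraries, against 441 and 424 in the Control libraries. For both genes the groups did not overlap.

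Among the other genes of the large subunit, 0 of the 4 P stalk genes were called in the authors' deposited table. The stalk recruits and activates the translation factors that hydrolyse GTP. In the authors' deposited table the base proteins RPLP0 and RPL12 stood at log2 fold changes of -0.39 and -0.35, and the acidic proteins RPLP2 and RPLP1 at -0.23 and 0.15. RPLP1 had normalized counts of 3880 and 3564 in the H2O2 libraries, against 2920 and 3774 in the Control libraries, so its groups overlapped. RPL12 had 220 and 219 in the H2O2 libraries, against 257 and 302 in the Control libraries. These stalk genes thus lay on both sides of 0, with groups that overlapped only for RPLP1. After length correction limma called RPLP0 (adjusted p 0.024) and RPL12 (adjusted p 0.050, just under the threshold) lower, with Benjamini-Hochberg adjustment. Without the deeper Control library limma's log2 fold changes were -0.46 for RPL12, -0.36 for RPLP0, -0.25 for RPLP2 and -0.02 for RPLP1. Without the shallower one they were -0.22, -0.41, -0.21 and 0.35.

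RPL5 and RPL11 bind 5S ribosomal RNA, and in free form the pair binds MDM2, the ubiquitin ligase of p53. RPL5 had normalized counts of 475 and 431 in the H2O2 libraries, against 593 and 499 in the Control libraries (log2 fold change -0.27 and adjusted p 0.263 in the authors' deposited table). RPL11 had 1637 and 1643 in the H2O2 libraries, against 1448 and 1574 in the Control libraries (log2 fold change 0.12 and adjusted p 0.662 in the authors' deposited table). Neither passed there, and limma's log2 fold change of RPL5 was -0.39 without the shallower Control library and -0.14 without the deeper one. For both genes the groups did not overlap, with RPL5 lower and RPL11 higher. Correcting each library for a trend with transcript length brought the log2 fold change of RPL11 to -0.01.

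Of the 4 genes around the peptidyl transferase centre, RPL3 fell and 3 were not called in the authors' deposited table. In the authors' deposited table the log2 fold change was -0.21 for RPL4, which lines the nascent peptide tunnel, -0.17 for RPL10, which joins the large subunit late in assembly, and 0.18 for RPL8. RPL8 had normalized counts of 4768 and 4491 in the H2O2 libraries, against 3922 and 4266 in the Control libraries. Both H2O2 libraries were above both Control libraries, with an adjusted p of 0.501 in the authors' deposited table. The limma log2 fold change of RPL8 was 0.24 without the shallower Control library and 0.12 without the deeper one. The 8 genes around the tunnel exit (RPL17, RPL19, RPL22, RPL23A, RPL26, RPL31, RPL35 and RPL39) had a median log2 fold change of 0.05, with 0 called and values from -0.26 (RPL26) to 0.24 (RPL39). With the shallower Control library left out, limma's log2 fold change was 0.27 for RPL22 and -0.40 for RPL35. With the deeper one left out it was 0.08 and -0.05. RPL39, the highest of all 76, had 276 and 229 in the H2O2 libraries, against 213 and 215 in the Control libraries (adjusted p 0.418 in the authors' deposited table).

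On the small subunit, the 6 genes of the platform and mRNA exit had a median log2 fold change of -0.31. RPSA and RPS3A fell, and in the authors' deposited table the log2 fold change was -0.51 for RPS26, -0.12 for RPS28 and -0.06 for RPS14. RPS26, which contacts the mRNA upstream of the start codon, had normalized counts of 62.7 and 55.1 in the H2O2 libraries, against 70.9 and 96.5 in the Control libraries. Its groups did not overlap, and its adjusted p was 0.232 in the authors' deposited table. Other genes' transcripts share 100% of the coding words of RPS26. The 5 genes of the mRNA channel and decoding region (RPS2, RPS3, RPS23, RPS15 and RPS9) had a median of -0.20, with 0 called and values from -0.27 (RPS3) to 0.05 (RPS2). limma called RPS3 and RPS9 lower only in the fit without the shallower Control library, where calls over all genes also rose in both directions. RPS6, the substrate of the S6 kinases, had 96.5 and 96.7 in the H2O2 libraries, against 148 and 112 in the Control libraries (log2 fold change -0.43 and adjusted p 0.201 in the authors' deposited table). limma called RPS6 lower only in that same fit. RPS27 and RPS27A, a ubiquitin fusion, had -0.35 and -0.17 and were not called in the authors' deposited table.

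RPS19 had the largest positive log2 fold change of the small subunit. It had normalized counts of 477 and 434 in the H2O2 libraries, against 418 and 371 in the Control libraries (log2 fold change 0.21 and adjusted p 0.447 in the authors' deposited table). RPS19 is the gene most often altered in Diamond-Blackfan anemia, an inherited failure of red cell production. Of the 17 listed genes known from that disease, 0 were called in the authors' deposited table, and their median log2 fold change was -0.18. Only the fit without the shallower Control library had limma calls among them, with RPL5, RPL35 and RPS24 lower and RPL15 higher. Calls over all genes also rose in both directions in that fit, which rests on 1 Control library.

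The subunits are compared by their summed levels and their medians. Summed over genes, the deposited group means of the large subunit came to 33368 in H2O2 and 32926 in Control, and those of the small subunit to 15920 in H2O2 and 16361 in Control. The large over small ratio of summed normalized counts was 2.08 and 2.11 in the H2O2 libraries and 1.97 and 2.05 in the Control libraries. Its mean was 2.10 ± 0.02 in H2O2 and 2.01 ± 0.06 in Control (SD, n = 2 each), and a two-sided exact permutation test gave p = 0.333, the smallest p that 2 against 2 allows. The median log2 fold change was -0.12 for the large subunit (values from -1.06 to 0.24) and -0.19 for the small subunit (values from -1.05 to 0.21). Length correction brought the medians to -0.21 for the large and -0.30 for the small subunit. The difference between these medians was not tested. The difference in the large over small ratio, H2O2 minus Control, was 0.0845 and lay between 0.0438 and 0.125 when 1 library was left out. It was 0.316 without genes that share over 10% of their sequence words with others. There the ratio itself was also larger, 3.43 in H2O2 and 3.11 in Control. Both H2O2 libraries were below both Control libraries for 24 of 46 large and 19 of 30 small subunit genes, against 25.6% of all genes. They were above both for 7 large and 2 small subunit genes, against 26.3% of all genes.

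The summed level of all 76 genes was nearly the same in both groups, and the medians of the genes of highest mean and of the rest lay on opposite sides of 0. Members held 0.714% (95% Wilson interval 0.708 to 0.720) and 0.670% (0.664 to 0.676) of listed reads in the H2O2 libraries, and 0.686% (0.680 to 0.692) and 0.713% (0.707 to 0.720) in the Control libraries. These intervals cover counting error only. The shares are of counted reads, and how reads that match several places were counted is not given. Of the 76 genes, 28 share over 50% of their coding words of 75 bases with other genes. The two-sided exact permutation test gave p = 1. The 10 genes of highest mean (RPL8, RPS20, RPL13A, RPLP1, RPL15, RPL30, RPS12, RPL11, RPL13 and RPL22) all had a log2 fold change above 0, with a median of 0.14 and 0 called in the authors' deposited table. By limma's estimates their median was 0.21 without the shallower Control library and 0.07 without the deeper one. Over all genes it was -0.003 and 0.0004 in these fits. Length correction turned RPL11 and RPS12 negative and brought the median of the 10 to 0.05 by limma's estimates. They held 0.397% and 0.362% of reads in the H2O2 libraries and 0.327% and 0.367% in the Control libraries, so the groups overlapped. The other 66 genes had a median log2 fold change of -0.21 and held 0.316% and 0.308% in the H2O2 libraries, against 0.359% and 0.346% in the Control libraries. Here both H2O2 libraries lay below both Control libraries. The two-sided exact permutation test gave p = 0.333 for the 66, the smallest possible, and p = 0.667 for the 10. The division at 10 genes was chosen after the values were seen.

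**Figure D3:**
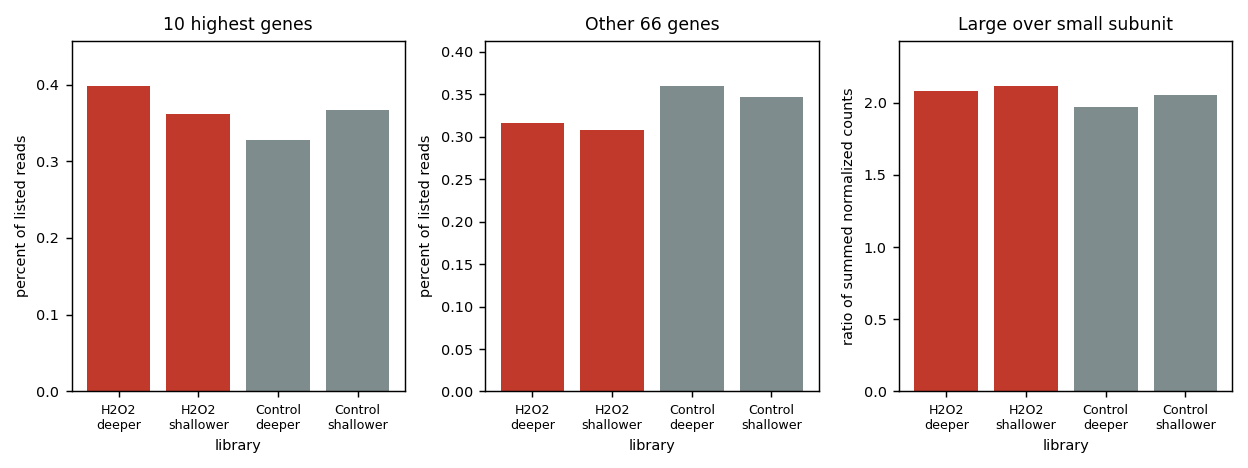
Bars give 1 library each, H2O2 in red left of Control in grey: the percent of listed reads in the 10 highest ribosomal protein genes (left), the percent in the other 66 (middle), and the ratio of large to small subunit summed normalized counts (right). The middle bars are at 0.316 and 0.308 for H2O2 and 0.359 and 0.346 for Control, while the left bars overlap between the groups.

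The fold change of a member went with its level. Across the 76 genes the correlation of mean normalized count with log2 fold change was 0.54 by Spearman and 0.53 by Pearson, and by Spearman it was 0.45 over the 46 large and 0.65 over the 30 small subunit genes. These are descriptions across genes of the same libraries, and both measures use the same counts. The 25 members of lowest mean (44.9 to 243) had a median log2 fold change of -0.29, against -0.03 for the 4967 listed genes in that range. The 25 of middle mean (246 to 503) had -0.15, against -0.01 for 3134 genes, and the 26 of highest mean (507 to 4362) had 0.05, against 0.03 for 4031 genes. Over listed genes divided into 5 classes of transcript length, the shortest class (median 1249 bases) had a median log2 fold change of 0.13 and the longest (median 7012 bases) one of -0.16. The median transcript of the members had 1010.5 bases.

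**Figure D4:**
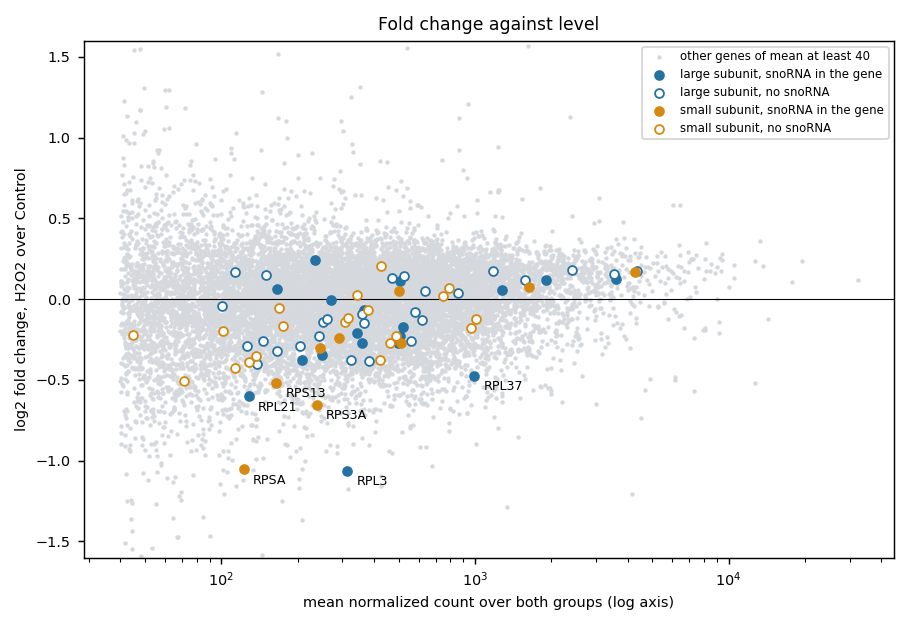
Each coloured point is a ribosomal protein gene, blue for the large and orange for the small subunit, filled where the gene holds an annotated snoRNA, with the mean normalized count on a log x axis and the log2 fold change of H2O2 over Control on the y axis. Grey points are other genes, and those beyond the y axis are not drawn. The 6 labelled genes were lower in the authors' table, all 6 are filled, and the genes of highest mean lie just above 0.

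Levels per length varied widely among genes whose proteins are mostly needed in equal numbers. Per 1000 coding bases the deposited means had medians of 693 in H2O2 and 747 in Control. RPS20 was the highest, with 12652 normalized counts per 1000 coding bases in H2O2 and 11236 in Control, followed by RPLP1 with 10882 in H2O2 and 9787 in Control. At the low end, RPS10 was at 83.7 in H2O2 and 97.8 in Control, and RPSA at 90.1 in H2O2 and 187 in Control. Per 1000 coding bases the median large subunit gene had 761 in H2O2 and 784 in Control, and the median small subunit gene 608 in H2O2 and 687 in Control.

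How reads that match several places were counted is not given in the sources used here, so sequence shared with other genes was measured beside these levels. In the GENCODE annotation, 64 of the 76 genes share at least 1 coding word of 75 bases with the transcripts of another gene, 9 share all of them, and 1123 annotated pseudogenes carry a member's symbol. The 26 genes that share under 10% of their words had a median Control level of 921 per 1000 coding bases, the 22 sharing 10 to 50% had 655, and the 28 sharing over 50% had 433. The same medians in H2O2 were 938, 557 and 394. The Spearman correlation of shared words with level was -0.32, a description across 76 genes, and the part of shared sequence in the levels was not tested. RPL18 stood low with 0% of coding words shared (202 in H2O2 and 247 in Control per 1000 coding bases), though 20.5% of the words of its whole transcript are shared and its exons overlap another gene on the same strand. RPL13A stood high with 59.4% shared (6145 in H2O2 and 5629 in Control).

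**Figure D5:**
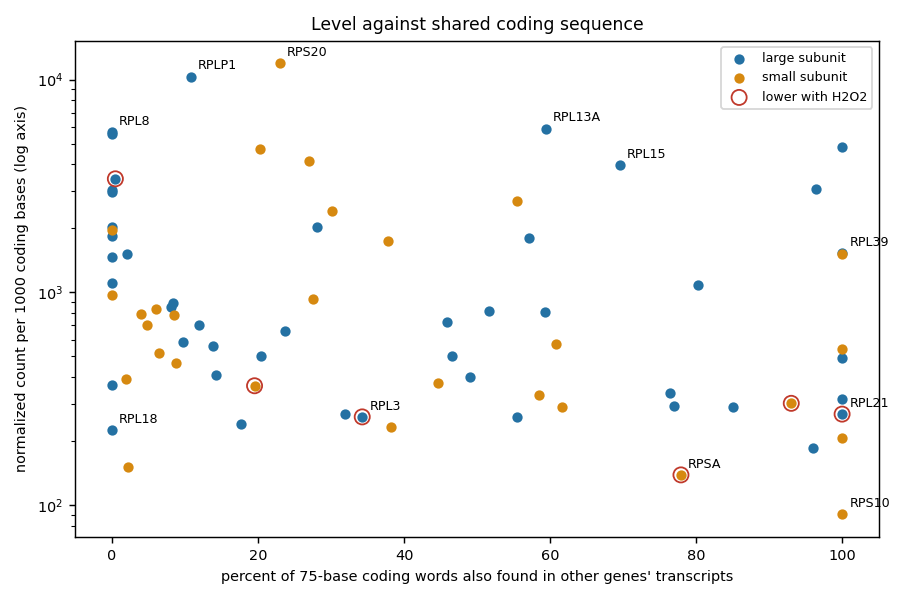
Each point is a ribosomal protein gene, blue for the large and orange for the small subunit, with the percent of its 75-base coding words also found in other genes' transcripts on the x axis and its mean normalized count per 1000 coding bases over both groups on a log y axis. Red rings mark 6 genes lower with H2O2, which lie between 0.461% (RPL37) and 100% (RPL21) shared words. Low levels occur across the x axis. The highest levels, of RPS20 and RPLP1, occur at 23.0% and 10.8%. RPL41 is also high (4799) at 100%, from a coding length of only 75 bases.

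The genes that fell were found in each class of shared sequence. The median log2 fold change was -0.14 for the 26 genes sharing under 10% of words (1 called), -0.17 for the 22 sharing 10 to 50% (2 called) and -0.13 for the 28 sharing over 50% (4 called), and the Spearman correlation was -0.15. Of the called genes, RPL21 shares 100% of its words, RPS3A 93.0%, RPSA 77.9%, RPL3 34.3%, RPS13 19.5% and RPL37 0.461%. The values of the first 3 may therefore include or lack reads of near-identical copies and are uncertain. Exons of RPS13 overlap PIK3C2A on the same strand and those of RPS3A overlap SH3D19 on the opposite strand, so reads of these pairs may not have been told apart. Same-strand exon overlaps exist for 12 members and opposite-strand ones for 29.

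All 7 genes that fell carry annotated snoRNAs. The 76 genes hold 60 snoRNAs in 28 of them, and RPL3 holds SNORD43, SNORD83A and SNORD83B, RPSA holds SNORA6 and SNORA62, and RPL37 holds SNORD72. Of the 28 host genes among the members, 7 were called lower in the authors' deposited table (25%) and the median log2 fold change was -0.23. Of the 48 members without snoRNAs, 0 were called there and the median was -0.12. Among other genes, 12 of 194 hosts (6.19%) were lower and 6 (3.09%) higher, with a median of 0.02, and 619 of 13041 genes without snoRNAs (4.75%) were lower. The split depends on the test and threshold: RPS18 and RPLP0, without snoRNAs, had adjusted p-values of 0.0862 and 0.0879 in the authors' deposited table. After length correction limma with Benjamini-Hochberg adjustment called 9 members lower, against 2.72% of all genes. Of these, RPLP0, RPL10A and RPS18 hold no snoRNA and the others do. Hosting of snoRNAs was examined after the called genes were known, and the difference between hosts and the other members was not tested. The values are of the host genes' mRNA, and the snoRNAs themselves are not analysed here.

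Genes near the members in function were also followed. In the authors' deposited table FAU, a ribosomal protein gene outside the rule, was not called (log2 fold change -0.11). Of the 8 paralogs with tissue-restricted or alternative use, 6 were listed and 0 called, all with log2 fold changes above 0, against 50% of all genes. RPL3L had only 21 and 8 reads in the H2O2 libraries and 7 and 8 in the Control libraries. RPL26L1 had 24 and 14 in the H2O2 libraries and 14 and 13 in the Control libraries. For RPL7L1 and RPL36AL the groups overlapped. RPL22L1, which can stand in for RPL22, had normalized counts of 656 and 668 in the H2O2 libraries, against 554 and 597 in the Control libraries. RPS27L, a p53 target, had 320 and 331 in the H2O2 libraries, against 281 and 285 in the Control libraries. In the authors' deposited table both stood at a log2 fold change of 0.20, with groups that did not overlap. The pseudogene RPS10P7 had 29 and 18 reads in the H2O2 libraries and 25 and 14 in the Control libraries.

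Of 16 listed mRNAs with a TOP tract that do not encode ribosomal proteins, 2 were lower and 0 higher in the authors' deposited table, against 4.62% and 2.58% of all genes, and their median log2 fold change was 0.10. HNRNPA1, a splicing and RNA export protein, had normalized counts of 333 and 415 in the H2O2 libraries, against 694 and 626 in the Control libraries (fold 0.567, adjusted p 7.71e-07 in the authors' deposited table). The groups were far apart, and 87.9% of its coding words are shared. EEF1D, an exchange factor of translation elongation, had 1076 and 924 in the H2O2 libraries, against 1623 and 1490 in the Control libraries (fold 0.642, adjusted p 7.19e-05 in the authors' deposited table). NPM1, a nucleolar chaperone, had 3970 and 4202 in the H2O2 libraries, against 2964 and 3499 in the Control libraries, and did not pass (log2 fold change 0.34, adjusted p 0.110 in the authors' deposited table). On all 4 libraries limma with Benjamini-Hochberg adjustment called the same 2 lower (12.5%) and 0 higher, against 2.58% and 1.52% of all genes. Leaving out the shallower Control library added calls in both directions, in unequal shares for these genes and over all genes.

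Ribosome assembly genes had medians above 0. Of 25 small subunit assembly genes 0 were called, with a median log2 fold change of 0.12. Of 37 large subunit assembly genes 2 were lower and 0 higher in the authors' deposited table, a share near the 4.62% of all genes that were lower, with a median of 0.06. NOC2L, which accompanies large subunit precursors, had normalized counts of 131 and 152 in the H2O2 libraries, against 247 and 288 in the Control libraries (fold 0.529, adjusted p 7.73e-06 in the authors' deposited table). MDN1, a giant ATPase that remodels large subunit precursors, had 919 and 937 in the H2O2 libraries, against 1556 and 1002 in the Control libraries (fold 0.726, adjusted p 0.00708 in the authors' deposited table, limma Benjamini-Hochberg adjusted p 0.142). When the shallower Control library was left out, limma with Benjamini-Hochberg adjustment called 2 of the 25 lower and 4 higher (16%), and 2 of the 37 lower and 8 higher (21.6%), against 11.6% of all genes lower and 10.6% higher. The difference between the assembly genes and the ribosomal protein genes was not tested.

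Of 13 genes that control TOP mRNA translation, 3 were lower and 0 higher in the authors' deposited table, against 4.62% and 2.58% of all genes, with a median log2 fold change of -0.17. LARP1, which binds TOP tracts, had normalized counts of 1680 and 1727 in the H2O2 libraries, against 2514 and 2059 in the Control libraries (fold 0.745, adjusted p 0.0179 in the authors' deposited table). TSC1 and TSC2, whose proteins together restrain mTORC1, had adjusted p-values of 0.0442 and 0.0479 in the authors' deposited table. limma with Benjamini-Hochberg adjustment called 0 of the 13, with adjusted p-values of 0.0588 for LARP1, 0.0833 for TSC1 and 0.0598 for TSC2. With cyclic loess it called LARP1 lower (Benjamini-Hochberg adjusted p 0.0398), 1 of the 13, against 2.23% of all genes. Without the shallower Control library calls were added in both directions, for a larger share of these genes than of all genes. That fit rests on 1 Control library.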

How the data were processed

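Poly(A)-selected RNA-seq libraries were made with a TruSeq kit and sequenced on a HiSeq machine, per the labels' protocols. Per the submitters' processing notes the authors used STAR, HTSeq, DESeq, CASAVA 1.8, Trim Galore and FastQC and the build hg19, with neither roles nor settings. The sources used here do not give the annotation, the strand setting or the treatment of reads that match several places. Per the file headers, the deposited group means are a signal: counts scaled by size factors. The deposited fold is the ratio of the group means, the deposited log2 column its log2, and the deposited p-value columns are those of the authors' DESeq test, with Benjamini-Hochberg adjustment over 16376 genes.

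Each group mean was solved for 2 whole counts within 1e-09, and all 16376 genes had 1 solution per group. limma 3.58.1 (R 4.3.3), with its trend option, was applied to log2(normalized count + 1), which understates the change of low genes. Shared words, coding lengths and snoRNAs came from GENCODE release 29 on another build, so no coordinates of the table are given.

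Members, lists and tests were chosen with earlier results of these data known. Named members are those past the threshold, the 5 largest rises and falls at a mean of at least 50, the 5 highest and 5 lowest by Control mean in each subunit, and the role groups. RPS18, named as a neighbour of the threshold, was chosen after its values were seen, as were RPL13 and the pseudogene. Of the other lists, the called genes and the 3 of smallest adjusted p were eligible, and others were chosen after their values were seen. Some genes that the rules name are counted in the totals but not reported here or drawn. No per-sample columns exist in the table, so the recovered libraries are the replicates. Alternatives were other tests, thresholds, scalings, pseudocounts, a length correction, sets without shared sequence, and leaving out each library.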

Additional observations from a re-analysis of the deposited data

How the results depend on the processing

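The number of members called lower was 7 by the authors' p-values, 9 at the looser threshold of 0.1, and 7 when the authors' p-values were readjusted over genes of mean at least 50. limma gave 4, and also 4 with library totals, with a mean of at least 50 and with cyclic loess. It gave 5 with a pseudocount of 10 and 9 after length correction. Of all genes tested, limma called 2.58% lower, and 2.69%, 2.79% and 2.23% with library totals, the mean filter and cyclic loess. The share was 2.62% with the pseudocount of 10 and 2.72% after length correction, which tested 13314 of the 16376 genes. The mean filter left 12118 genes. These limma variants of the member count were chosen after seeing the data. Leaving out 1 library at a time gave 3 to 15, the lowest without either H2O2 library and the highest without the shallower Control library, while calls over all genes moved too (1.10% to 11.6% lower). The number called higher was 0 in each of these, except 6 without the shallower Control library (range 0 to 6). These refits assume that a lone library varies like the other group. The median log2 fold change of the large subunit, -0.124, was -0.140 with library totals, -0.121 with a pseudocount of 10, -0.127 without genes sharing over 10% of words, -0.211 after length correction and -0.101 with cyclic loess, and -0.126 to -0.099 when 1 library was left out. That of the small subunit, -0.189, was -0.300 after length correction and -0.235 to -0.124 when 1 library was left out. The members' share of reads differed by -0.00784 percentage points (H2O2 minus Control), with a range of -0.0296 to 0.0140 when 1 library was left out. It turned positive without the shallower H2O2 library (0.0140) and without the shallower Control library (0.00569). The difference of the large to small ratio was 0.0845, 0.0438 to 0.125 when 1 library was left out, 0.0367 without the 5 highest members and 0.316 without genes sharing over 10% of words. After length correction the limma log2 fold change turned negative for 9 of the 76 members and positive for 1. The named members among them turned negative: RPL11 (-0.00625), RPS12 (-0.0453), RPS2 (-0.0703) and RPS29 (-0.0615). After length correction RPL37 had a limma adjusted p of 0.0822. The transcript assigned to RPL37 has 7686 bases, with a coding length of 291, and the part of that length in the change was not tested. Compared with limma before this correction, RPL21, RPLP0, RPL10A, RPS18 and RPL12 were among the members gained. With 1 library left out the log2 fold change changed sign for RPL17 (-0.0551 to 0.0401), RPL24 (-0.0395 to 0.407), RPL27 (-0.0181 to 0.332), RPL31 (-0.252 to 0.00226), RPL36A (-0.103 to 0.0218), RPLP1 (-0.0216 to 0.349), RPS10 (-0.470 to 0.0672), RPS12 (-0.0483 to 0.192), RPS14 (-0.234 to 0.127), RPS2 (-0.0502 to 0.162), RPS23 (-0.141 to 0.206), RPS28 (-0.297 to 0.0824) and RPS29 (-0.100 to 0.216). None of these 13 was called in the authors' test. The cause of these changes was not tested. No paired analysis was possible because the recovered libraries carry no replicate numbers. With 2 libraries a group and a mean of 44.9 normalized counts for the lowest member (RPS10), the size of difference that could be called was not tested.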
